A study of Homo sapiens with 10 samples.

Results

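The genes described here encode ephrins, their Eph receptors, semaphorins, plexins and neuropilins, ligands and receptors of guidance systems of animal tissues. They were chosen by symbol alone from the protein-coding genes of the GENCODE annotation on GRCh37 (hg19), and 53 of 20098 genes on chromosomes 1 to 22 and X were members. These were 14 Eph receptors, 8 ephrins, 20 semaphorins, and 11 plexins and neuropilins. The study mapped histone marks and open chromatin in MDAMB231, an established line of triple-negative breast cancer cells with mesenchymal traits, to find the regulatory elements of these cells. The cells were untreated, and the line was the only group used here. H3K4me3, H3K27Ac and H3K4me1 were mapped by chromatin immunoprecipitation and sequencing (ChIP-seq), and nucleosome-depleted DNA by FAIRE-seq, with 2 samples for each of the 4 assays, 1 ChIP input and 1 FAIRE input. The samples of an assay were combined into 1 peak list.

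The lists held 18019 H3K4me3 peaks, 37495 H3K27Ac peaks, 26771 H3K4me1 peaks and 46552 FAIRE peaks. A ChIP-seq peak carries a score of 10 times −log10 of the caller's p. In most of the strongest H3K4me3 and H3K27Ac peaks it stops at 3100, so scores do not rank those peaks. The highest H3K4me1 score was 2123. A FAIRE peak carries a height in the units of its own caller. The FAIRE list holds subpeaks, some of which abut base to base, so neighbouring FAIRE peaks need not be separate open regions. The lists hold neither read totals nor values by sample. The lists therefore give no depth behind a peak and no spread between samples, and absence from a list says only that no peak was called. No test was made, and shares are given with 95% Wilson intervals, which cover counting over genes or peaks only.

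As background, Eph receptors are tyrosine kinases that bind ephrins on a neighbouring cell, and both partners can signal. Semaphorins act through plexins, and most secreted class 3 semaphorins also need a neuropilin as co-receptor. Both systems steer axons, vessels and migrating cells, and both have been studied in the adhesion, migration and invasion of breast cancer cells. H3K4me3 is typical of gene starts, H3K4me1 of enhancers and the flanks of gene starts, and H3K27Ac of active elements of either kind.

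The label of the line was checked against promoter marks at marker genes. The mesenchymal genes VIM, CD44, CAV1, AXL and ZEB1 had promoter peaks in all 4 lists, and SPARC in all but H3K4me3. Of 9 luminal and epithelial markers, 7 had promoter H3K4me3 and 3 had promoter H3K27Ac (GATA3, KRT19 and CDH1). CDH1 and GRHL2 had no promoter H3K4me3, but CDH1 had promoter H3K27Ac and FAIRE peaks and GRHL2 a promoter FAIRE peak. Over all protein-coding genes the shares were 67.3% for H3K4me3 and 63.5% for H3K27Ac. Promoter H3K4me3 was present at 2 of 5 neuron markers (SNAP25 and SYT1), at 0 of the 3 endothelial markers that matched the annotation out of 4 listed, at 1 of 4 blood markers (CD14) and at 1 of 2 liver markers (APOA1). SNAP25, SYT1 and APOA1 also had promoter H3K27Ac, although they mark other cell types, and SYT1 had peaks in all 4 lists.

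Most of the guidance genes had a marked promoter in these cells. A promoter was any annotated start site of the gene widened by 1 kb on each side, and a peak counted when it shared at least 1 base with it. H3K4me3 peaks lay at the promoters of 46 of 53 members (86.8%, interval 75.2 to 93.5%), against 67.3% of all protein-coding genes. H3K27Ac did not follow: 34 members had it (64.2%, 50.7 to 75.7%), against 63.5% of all genes. The shares with promoter H3K4me1 (15 members, 28.3%, 18.0 to 41.6%, against 20.0%) and promoter FAIRE peaks (24 members, 45.3%, 32.7 to 58.5%, against 39.3%) likewise had intervals that held the share of all genes. With the peak centre required inside the promoter, 4 members had H3K4me1, against 8.64% of all genes. The FAIRE count was 13 members with the most upstream start site alone, against 30.6% of all genes, and 11 with FAIRE peaks of at least the median height, against 24.4%.

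At 17 members the promoter had H3K4me3, H3K27Ac and FAIRE peaks (32.1%, 21.1 to 45.5%), against 36.5% of all genes. These peaks can lie at different start sites of a gene. At 13 members all 3 lay at the same start site (24.5%, 14.9 to 37.6%), against 33.4%. With the most upstream start site of each gene alone the count was 6 members, against 28.5% of all genes, and with FAIRE peaks of at least the median height 8, against 22.9%. At the other end, 5 members had no promoter peak in any list (9.43%, 4.10 to 20.3%), against 29.3% of all genes. That count was 9 with the most upstream start site alone, against 35.4%, and 8 with peak centres, against 31.6%. No member had promoter H3K4me1 without promoter H3K4me3 (0 of 53, interval up to 6.76%), against 2.03% of all genes, although 2 did with the most upstream start site alone (against 1.72%) and 1 with peak centres (against 1.26%). The members differ from other genes in build as well, with a median of 7 start sites against 5 and a median gene length of 45.9 kb against 27.3 kb, and each start site adds a window in which a peak can count. With the most upstream start site alone, promoter H3K4me3 was present at 41 members (77.4%, 64.5 to 86.5%), against 61.7% of all genes. With peak centres it was present at 40 members (75.5%, 62.4 to 85.1%), against 64.7%, a share inside the interval.

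**Figure D1:**
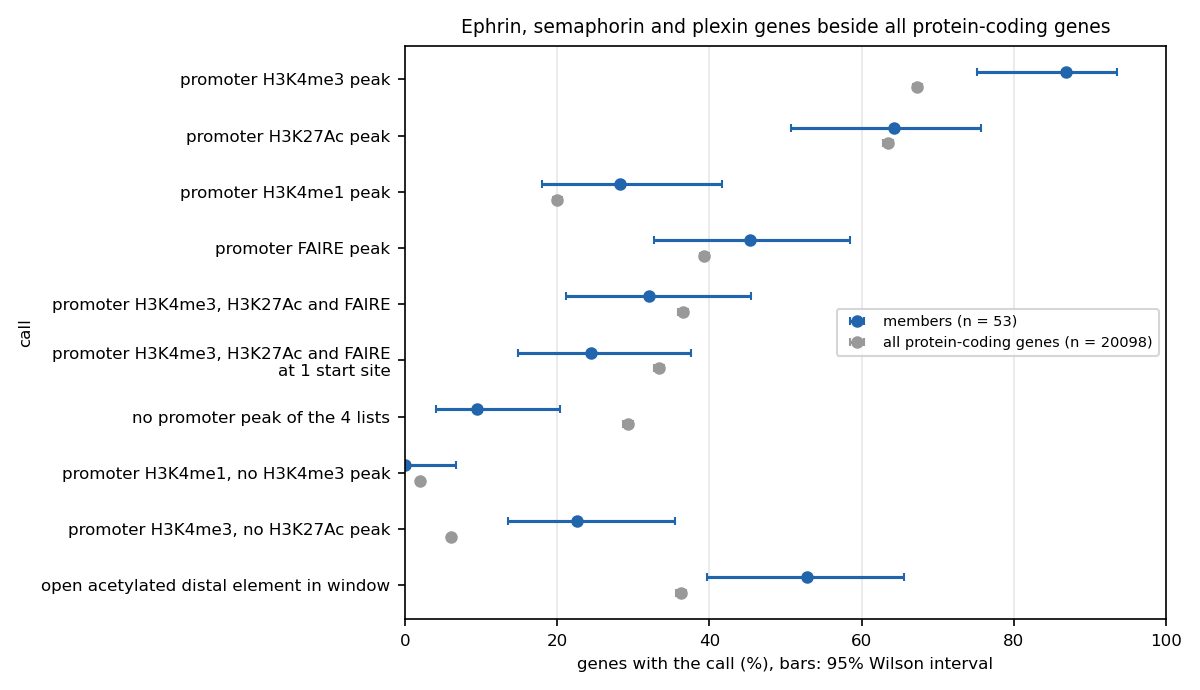
Share of genes with each promoter or window call (percent, points) for the 53 members and for all 20098 protein-coding genes, with 95% Wilson intervals as bars. The members lie at 86.8% for H3K4me3 beside 67.3% of all genes, at 64.2% for H3K27Ac beside 63.5%, and at 22.6% for H3K4me3 without H3K27Ac beside 6.05%.

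All members are named here by the combination of their promoter peaks, and differences between the groups were not tested. H3K4me3 with H3K27Ac and neither of the other lists was the most frequent state, at 13 members (24.5%, against 20.2% of all genes): the ephrins EFNA1 and EFNA4, the receptors EPHA6, EPHB2 and EPHB4, the semaphorins SEMA3E, SEMA4C, SEMA6B, SEMA6D and SEMA7A, and the plexins PLXNA1, PLXNA3 and PLXNB1. All 4 lists had a promoter peak at 10 members (18.9%, against 13.1%): EFNA5, EPHA2, EPHA4, EPHA5, SEMA3A, SEMA3B, SEMA3C, SEMA4B, NRP1 and NRP2. H3K4me3, H3K27Ac and FAIRE without H3K4me1 were found at 7 members (13.2%, against 23.5%), EFNA3, EFNB1, EFNB2, SEMA3D, SEMA4F, PLXNA2 and PLXNC1, and H3K4me3, H3K27Ac and H3K4me1 without FAIRE at 4 (7.55%, against 4.58%), SEMA4D, PLXNB2, PLXNB3 and PLXND1.

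The remaining states lacked H3K27Ac. H3K4me3 was the sole promoter mark at 7 members (13.2%, against 4.95%), EFNB3, EPHA3, EPHA10, EPHB6, SEMA3F, SEMA4G and SEMA5A. It came with FAIRE at 4 members (7.55%, against 0.736%), EPHA7, SEMA5B, SEMA6A and SEMA6C, and with FAIRE and H3K4me1 at EPHB3 (1.89%, against 0.109%). A FAIRE peak alone was found at PLXNA4 and SEMA4A (3.77%, against 0.597%), and no peak at EFNA2, EPHA1, EPHA8, EPHB1 and SEMA3G.

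**Figure D2:**
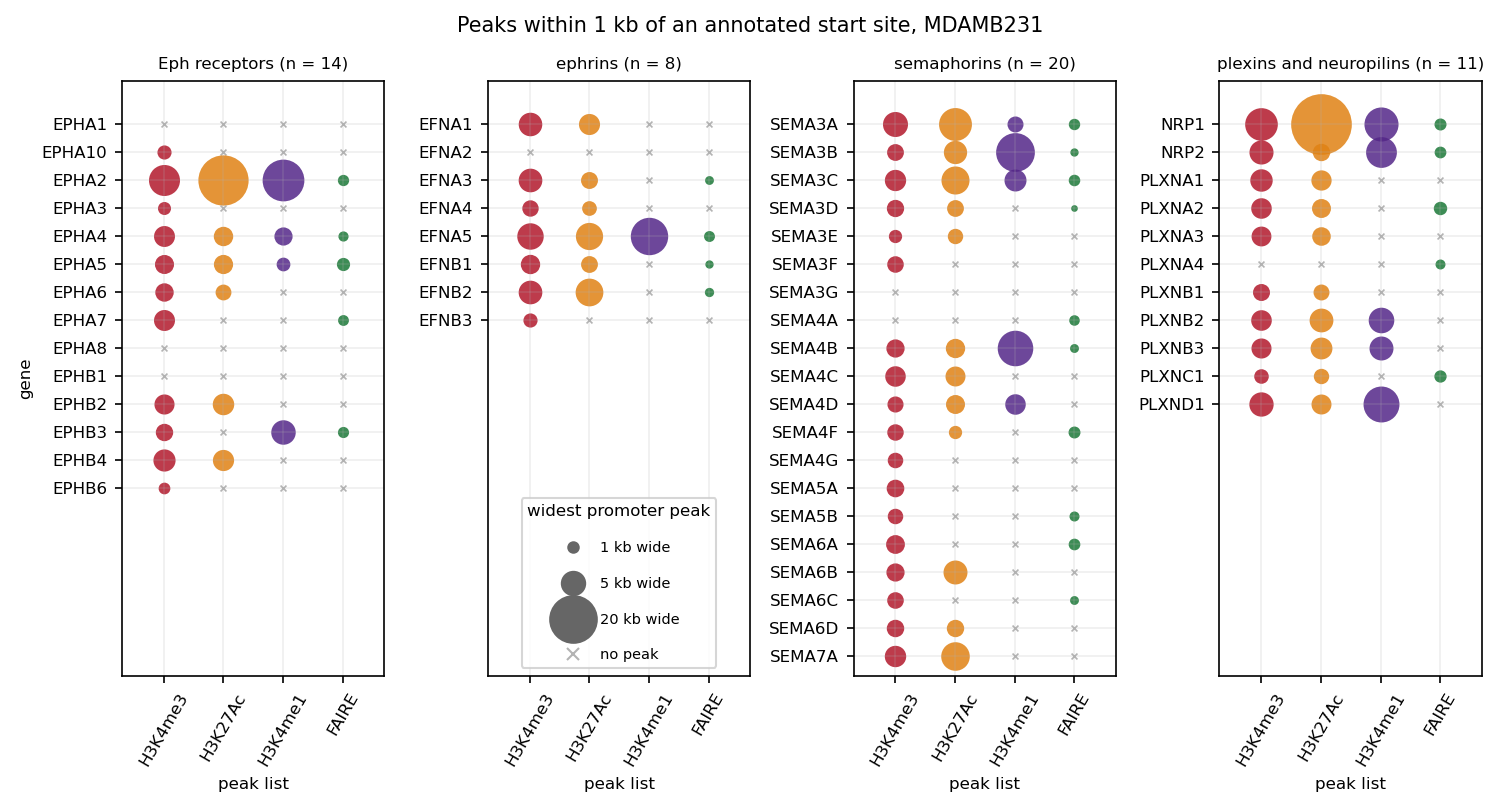
Peaks of the 4 lists within 1 kb of an annotated start site of each member, by group. A disc marks a peak, with an area in proportion to the width of the widest promoter peak, and a cross marks no peak. NRP1 and EPHA2 have the widest H3K27Ac peaks, at 33905 and 23267 bp, and 12 members with H3K4me3 have no H3K27Ac.

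Among the ephrins, the membrane-bound ligands, EFNA5 had the tallest promoter FAIRE peak. EFNA5 encodes an A-type ephrin held by a lipid anchor, known for repelling axons in topographic maps. Its H3K4me3 peak at chr5:107003566-107010016 was 6451 bp wide with a score of 3100, and an H3K27Ac peak of 6828 bp with a score of 3100 covered the same start sites. The FAIRE height of 116 (chr5:106724735-106725425) belonged to another start site, within the gene, where H3K27Ac had a score of 3100 and H3K4me1 a score of 105 but no H3K4me3 peak was called.

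EFNB1, a transmembrane B-type ephrin, had its 3 peaks at its single start site. The FAIRE peak at chrX:68048463-68049102 had a height of 58.1, the H3K4me3 score was 3100 and the H3K27Ac score 107. EFNA3 had a FAIRE height of 52.7 at chr1:155057103-155057826, beside an H3K4me3 score of 3100 and an H3K27Ac score of 590. EFNA3 lies 9284 bp from EFNA4, and the windows of EFNA1, EFNA3 and EFNA4 overlap, so their distant peaks are partly the same peaks. The windows of SEMA3B and SEMA3F also overlap. The promoter peaks of EFNA4 also lay at promoters of ADAM15 and EFNA4-EFNA3, and those of EPHB4 at a promoter of SLC12A9.

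Eph receptors were the group with the smallest share of acetylated promoters, 6 of 14 (42.9%, 21.4 to 67.4%), with an interval that holds the 63.5% of all genes. The tallest promoter FAIRE peak of the group, of height 83.4, was that of EPHB3 (chr3:184278559-184279707), a receptor for B-type ephrins, beside an H3K4me3 score of 1805 and no promoter H3K27Ac. Among receptors with H3K4me3, H3K27Ac and FAIRE, EPHA2, a receptor for A-type ephrins that is much studied in breast cancer, had the tallest. A single H3K27Ac peak of 23267 bp (chr1:16463175-16486441, score 3100) covered its upstream part, with an H3K4me3 peak of 8866 bp and a score of 3100 inside it. Its tallest promoter FAIRE peak had a height of 62.9 (chr1:16472081-16472595) and lay 350 bp from a downstream start site.

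EPHA5 and EPHA4, receptors best known from the nervous system, were the other receptors with all 4 lists. EPHA5 had a FAIRE height of 47.8 at chr4:66535372-66536977, an H3K4me3 score of 3100 and an H3K27Ac score of 1453, and all 5 of its start sites lay inside the H3K4me3 peak. EPHA4 had an H3K4me3 score of 3100 and an H3K27Ac score of 781 at its upstream start sites, but its FAIRE peak (chr2:222365789-222366745, height 44.7) and its H3K4me1 peak (score 190) lay at a start site within the gene.

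Of 20 semaphorins, 18 had promoter H3K4me3 (90.0%, 69.9 to 97.2%, against 67.3% of all genes) and 12 promoter H3K27Ac (interval 38.7 to 78.1%, against 63.5%). SEMA3C, a secreted semaphorin with a role in the outflow tract of the heart, had an H3K4me3 score of 2532 and an H3K27Ac peak of 7254 bp with a score of 3100. Its tallest promoter FAIRE peak, of height 79.5 (chr7:80550335-80551337), lay at a start site without H3K4me3, and those at the marked start sites had heights of 58.5 and 63.2. SEMA3A, the secreted repellent that signals through NRP1 and A-type plexins, had its tallest promoter FAIRE peak, of height 73.1, at a start site without H3K4me3 (chr7:84001397-84002433), where H3K27Ac had a score of 2189. At the start sites inside its H3K4me3 peak of 5772 bp (chr7:83820548-83826319) the FAIRE height was 49.1. SEMA4B, a transmembrane semaphorin, had 2 H3K4me3 peaks with scores of 3100 each and a FAIRE height of 71.9 (chr15:90726914-90727650).

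Of the receptors of the semaphorins, 10 of 11 plexins and neuropilins had promoter H3K27Ac (90.9%, 62.3 to 98.4%), with an interval that holds the 63.5% of all genes. NRP1, the co-receptor for class 3 semaphorins and for VEGF, had the widest promoter H3K4me3 peak of all members, 9836 bp at chr10:33617403-33627238, inside an H3K27Ac peak of 13817 bp. A further H3K27Ac peak of 33905 bp (chr10:33533598-33567502) covered a start site within the gene, and there the FAIRE height of 174 (chr10:33552821-33553919) was the greatest at any member promoter. Within 1 kb of the start sites inside the H3K4me3 peak of NRP1 the FAIRE height was 58.9, and a FAIRE peak of height 99.2 lay in the same H3K4me3 peak farther into the gene.

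PLXNA2, an A-type plexin, had a FAIRE height of 79.0 at chr1:208418124-208419783, an H3K4me3 score of 3100 and an H3K27Ac score of 998. NRP2, the co-receptor for SEMA3F and VEGF-C, had an H3K4me3 peak of 5345 bp with H3K27Ac scores of 249 and 285, while its FAIRE peak (chr2:206612950-206614225, height 78.2) and H3K4me1 peaks lay at start sites within the gene. PLXND1, the receptor for SEMA3E in vessels, was among the 5 members with the widest H3K4me3 peaks, at 5446 bp (chr3:129321486-129326931), with no promoter FAIRE peak. The tallest promoter FAIRE peak had a median height of 56.8 over 24 members, against 69.2 over 7908 genes.

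Among marked promoters, H3K4me3 without H3K27Ac was more frequent in the members than over all genes. This state was chosen for description after its values were seen. It was found at 12 of 53 members (22.6%, 13.5 to 35.5%), against 6.05% of all protein-coding genes. Taken over genes with promoter H3K4me3, the share was 26.1% of 46 members and 8.98% of 13532 genes. The 12 members were 5 Eph receptors, 1 ephrin and 6 semaphorins, with no plexin or neuropilin. At 8 members the state was also found under every other promoter setting tried: EFNB3, EPHA3, EPHB3, EPHB6, SEMA5A, SEMA5B, SEMA6A and SEMA6C.

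These promoters had narrower and lower-scoring H3K4me3 peaks. The median width was 2374 bp and the median score 1871 for the 12 members, against 3804 bp and 3100 for the 34 members with H3K27Ac. All genes showed the same order, 1926 bp against 3058 bp. FAIRE peaks lay at 5 of the 12 promoters (41.7%), against 14% of the 1215 genes in that state. The FAIRE height was 83.4 at EPHB3. At EPHA7 (42.3), SEMA5B (35.6), SEMA6A (55.4) and SEMA6C (43.1) it was under the list's median of 61.1. Neither share was counted with FAIRE peaks of at least the median height, and their difference was not tested.

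EPHA7, a receptor for A-type ephrins, had the widest H3K4me3 peak of the 12, 4066 bp with a score of 3180 (chr6:94126207-94130272), with a FAIRE height of 42.3. Its nearest H3K27Ac peak was 102327 bp and its nearest H3K4me1 peak 2777091 bp from any of its start sites. EPHA3 had an H3K4me3 score of 648 over 1566 bp (chr3:89156198-89157763), and its nearest peaks in the other lists were between 875450 and 955600 bp away. SEMA5A, a semaphorin with thrombospondin repeats, had an H3K4me3 score of 1412 and its nearest H3K27Ac peak at 204385 bp. The other 9 members of this state had an H3K27Ac peak between 1328 bp (SEMA3F) and 40764 bp (EPHB6) from a start site. EPHB6 and EPHA10, both receptors without kinase activity, had H3K4me3 scores of 143 and 885.

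**Figure D3:**
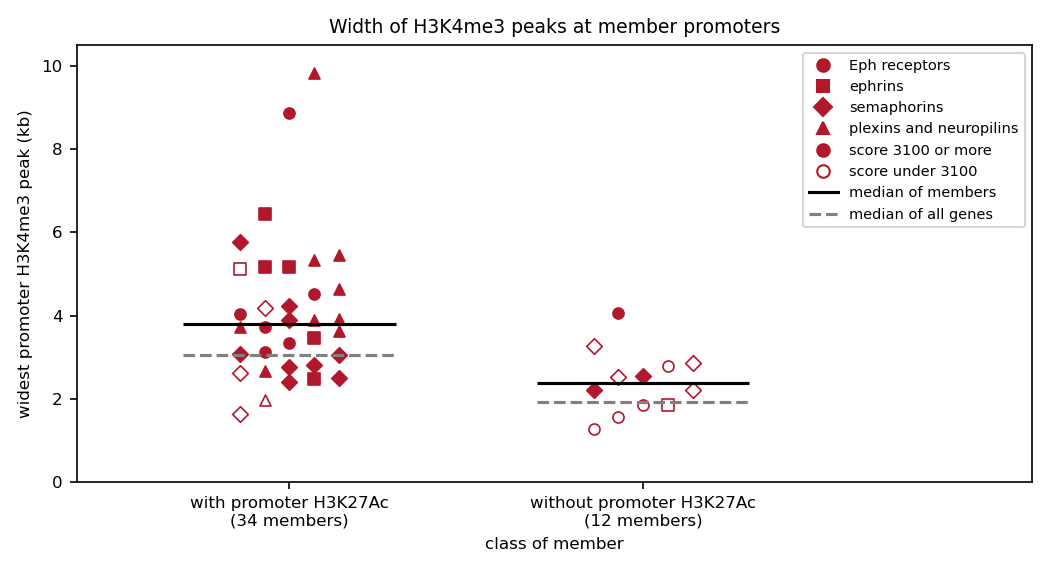
Width in kb of the widest promoter H3K4me3 peak of each member, for the 34 members with and the 12 members without promoter H3K27Ac. Symbols give the group, filled symbols a score of 3100 or more, solid lines the members' medians and dashed lines the medians of all genes. The medians of members are 3804 and 2374 bp, and the widest peak without H3K27Ac is that of EPHA7, at 4066 bp.

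The 5 members without any promoter peak differed in their surroundings. EPHB1, a receptor for B-type ephrins with a window of 565.2 kb, had no H3K4me3 peak within 306065 bp of a start site, yet an intron held an H3K4me1 peak (chr3:134564145-134567565) that overlapped an H3K27Ac peak with a score of 732 and a FAIRE peak with a height of 118. The edge of that H3K4me1 peak lay 3783 bp from the nearest EPHB1 start site. EPHA8 had no peak of any list within its window of 140.1 kb, with the nearest at 109791 bp. EPHA1 had its nearest peaks outside the gene, H3K27Ac at 5887 bp and H3K4me3 at 8213 bp. EFNA2 and SEMA3G had the nearest H3K4me3 peaks at 8647 and 9367 bp, both outside the gene.

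Promoter sequence was compared through the ratio of observed to expected CpG, with the RefSeq promoter sequences of GRCh38.p14, which run from 250 bases before to 50 after the start and matched 47 of 53 members. EFNB3, EPHA10, NRP1, SEMA3A, SEMA6A and SEMA6B had no entry. The median ratio was 0.71 (0.17 to 1.06) for 40 members with promoter H3K4me3 and 0.74 (0.27 to 1.01) for 7 without. Over all genes with a sequence the medians were 0.84 and 0.30. In windows of 500 bases on each side of the most upstream GENCODE start site, which change both the start site and the length, the members' medians had the opposite order, 0.77 and 0.55. Members with H3K4me3 but no H3K27Ac had a median of 0.69 (n = 9), against 0.73 (n = 31) for those with both.

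Promoters with and without peaks are given as the 250 bases before the RefSeq start, each found once in GRCh37, with CpG in capitals and written in the direction of the gene. EFNA5 and PLXNA4 were taken for the tallest promoter FAIRE peaks among members with a sequence, and SEMA3G and EPHB1 for the lowest CpG ratios among Eph receptors and semaphorins without a promoter peak. In neither of the first pair did the FAIRE peak lie at the start shown. EFNA5 (chr5:107006639-107006888, minus strand) had 41 CpG in these 250 bases and lay in H3K4me3 and H3K27Ac peaks. PLXNA4 (chr7:132261230-132261479, minus strand) had 23 CpG and no peak of any list within 1 kb. EPHB1 (chr3:134513852-134514101, plus strand) had 15 CpG and SEMA3G (chr3:52479120-52479369, minus strand) had 4.
EFNA5 promoter: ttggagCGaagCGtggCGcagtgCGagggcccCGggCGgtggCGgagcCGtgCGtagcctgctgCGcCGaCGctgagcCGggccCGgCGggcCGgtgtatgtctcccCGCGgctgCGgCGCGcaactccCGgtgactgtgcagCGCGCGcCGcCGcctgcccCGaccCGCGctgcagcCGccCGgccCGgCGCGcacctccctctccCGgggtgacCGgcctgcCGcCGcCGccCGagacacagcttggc
PLXNA4 promoter: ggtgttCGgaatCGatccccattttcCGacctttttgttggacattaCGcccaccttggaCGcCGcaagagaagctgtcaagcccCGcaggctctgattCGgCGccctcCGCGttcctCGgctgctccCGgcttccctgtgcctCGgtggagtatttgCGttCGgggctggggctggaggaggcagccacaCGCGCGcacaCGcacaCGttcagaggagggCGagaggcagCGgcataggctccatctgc
EPHB1 promoter: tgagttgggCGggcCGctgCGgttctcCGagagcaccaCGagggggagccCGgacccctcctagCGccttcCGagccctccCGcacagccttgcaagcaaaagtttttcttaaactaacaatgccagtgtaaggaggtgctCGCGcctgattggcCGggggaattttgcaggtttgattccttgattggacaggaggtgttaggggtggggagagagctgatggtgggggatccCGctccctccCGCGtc
SEMA3G promoter: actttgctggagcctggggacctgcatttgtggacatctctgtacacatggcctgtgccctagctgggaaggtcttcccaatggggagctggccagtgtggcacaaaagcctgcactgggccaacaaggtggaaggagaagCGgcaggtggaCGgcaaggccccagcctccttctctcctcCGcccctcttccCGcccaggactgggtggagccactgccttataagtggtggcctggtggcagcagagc

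Many members have several start sites, and H3K4me3 marked a part of them. Of 50 members with more than 1 start site, 39 had some inside and some outside H3K4me3 peaks (78.0%), against 58.9% of 16859 genes. The greatest distances between a marked and an unmarked start site were 932729 bp in EPHA6, 532897 bp in SEMA6D, 297279 bp in SEMA3A, 282074 bp in EFNA5 and 280530 bp in SEMA5A. In EPHA6 and SEMA5A the marked site was upstream and the far site had no peak of any list. In SEMA6D and SEMA3A the unmarked site was the upstream one, also without a peak. The far start site of EFNA5 was the exception, with H3K27Ac, H3K4me1 and 3 FAIRE peaks that abut base to base. SEMA6D, a transmembrane semaphorin, had H3K4me3 at 6 of 13 start sites, and EPHA6 at 3 of 7.

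In the windows of the members (gene bounds widened by 50 kb), 156 of 275 H3K27Ac peaks lay away from all promoters (56.7%, 50.8 to 62.5%, against 64.2% of the whole list). The same held for 128 of 162 H3K4me1 peaks (79.0%, 72.1 to 84.6%, against 82.3% of the whole list) and for 228 of 306 FAIRE peaks (74.5%, 69.3 to 79.1%, against 80.6% of the whole list). Of 150 H3K4me3 peaks, 25 lay away from promoters (16.7%, 11.6 to 23.4%, against 29.0% of the whole list), 51 at member promoters and 74 at promoters of other genes. Each window is built around a gene and holds its promoters, unlike the whole list. Windows of other genes were not counted in this way, so these shares do not set the members apart. A distal element was defined as an H3K4me1 peak that overlapped an H3K27Ac peak and a FAIRE peak and no promoter of any protein-coding gene. At least 1 such open acetylated element lay in the windows of 28 members (52.8%, 39.7 to 65.6%), against 36.3% of all genes. The interval held the share of all genes with bounds widened by 100 kb (62.3%, 48.8 to 74.1%, against 50.6%) and with promoters of 2 kb on each side (47.2%, 34.4 to 60.3%, against 34.6%). The median window was 146 kb for members and 127 kb for all genes, and the part of window length in this count was not tested.

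The windows held 84 of 13158 elements, none of them shared by 2 members. A member had the nearest start site for 78 elements (92.9%), and 59 lay inside a member gene (70.2%). These shares were not counted for other genes, so they do not set the members apart. Nearness does not show which gene an element acts on. The elements were unevenly spread, with 45 in the windows of 5 members, none at 25 members and 5 or more at 7. They were uneven over all genes as well, where 63.7% had none, 97.2% had fewer than 5 and the highest number was 34. NRP1 and EFNA5 had 11 each, SEMA3A 9, and SEMA3C and PLXNA4 7 each. More elements than 99.7% of all genes were found at NRP1 and EFNA5, and more than 98.9% at SEMA3C and PLXNA4.

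The order by density put NRP1 ahead of EFNA5 and SEMA7A ahead of SEMA3A. Per 100 kb of window NRP1 had 4.25 elements, EFNA5 2.79, SEMA3C 2.50, SEMA7A 1.60 and SEMA3A 1.41. The density of NRP1 was above that of 99.9% of all genes and that of EFNA5 above 98.7%. By density the ranks of SEMA3C (98.1%), SEMA3A (91.1%) and PLXNA4 (88.5%) were lower than by number. SEMA7A, a semaphorin with a lipid anchor, reached its rank with 2 elements, both with an H3K27Ac score of 3100. EPHA5 and SEMA6D had 5 elements each in windows of 450.9 and 690.1 kb.

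**Figure D4:**
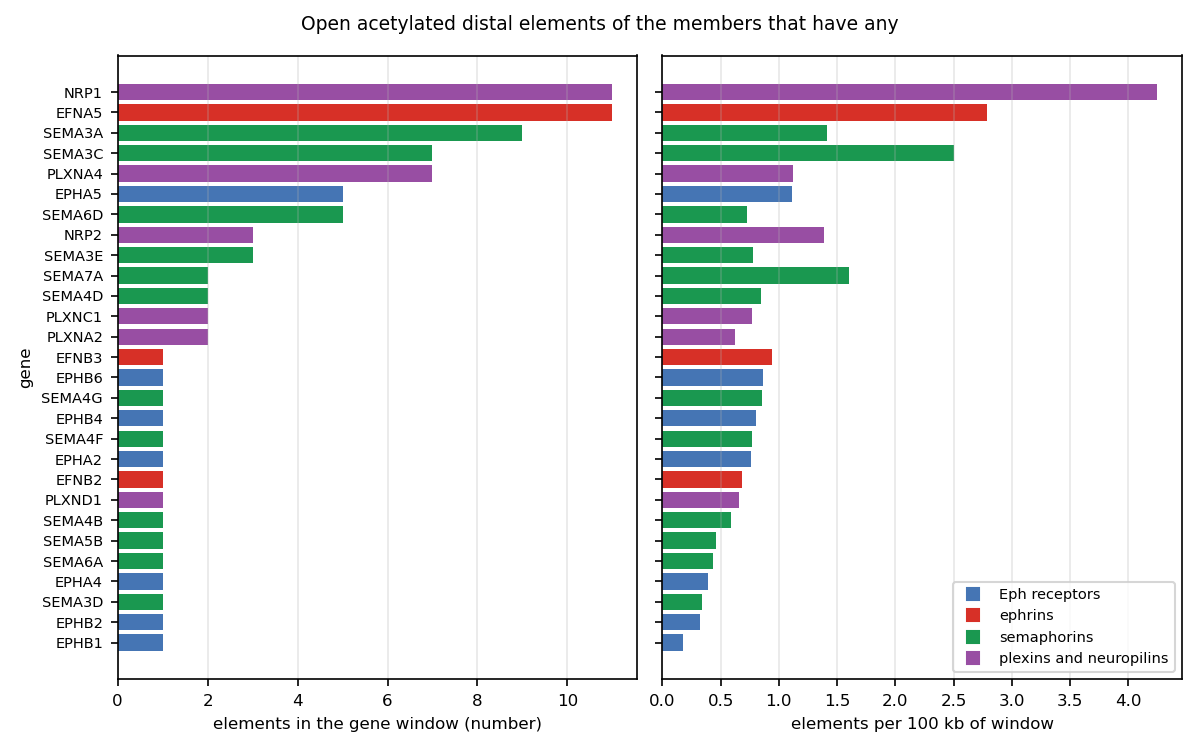
Open acetylated distal elements in the windows of the 28 members that have any, as a number (left) and per 100 kb of window (right), coloured by group. NRP1 and EFNA5 lead with 11 elements each, and NRP1 has the highest density, 4.25 per 100 kb.

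The leading loci were built differently. At NRP1, 3 elements lay inside the gene, 3 upstream and 5 downstream of it, and 8 of the 11 had an H3K27Ac score of 3100 or more. All 11 elements of EFNA5 were intronic, with centres 15548 to 66242 bp from the nearest of its start sites, and 1 had an H3K27Ac score of 3100 or more. At SEMA3A, 8 of 9 elements were inside the gene, the farthest with its centre 170439 bp from a start site. At SEMA3C, 5 of 7 were intronic, and the element with its tallest FAIRE peak, downstream of the gene, was nearer to a start site of CD36.

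PLXNA4, an A-type plexin that signals for SEMA3A together with NRP1, was the exception among these genes. None of its 4 start sites had H3K4me3 or H3K27Ac, and the nearest H3K4me3 peak lay 431784 bp away. Its window nevertheless held 12 H3K27Ac, 11 H3K4me1 and 23 FAIRE peaks and 7 distal elements, 6 of them inside the gene. The element with the tallest FAIRE peak, at chr7:131972156-131986519, had an H3K4me1 score of 581, an H3K27Ac score of 3100 and a FAIRE height of 145. A promoter FAIRE peak of height 137 lay at its most downstream start site (chr7:131829843-131830763). SEMA4A, chosen for naming after its values were seen, was the other member with a promoter FAIRE peak alone, of height 116 at 972 bp from a start site.

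**Figure D5:**
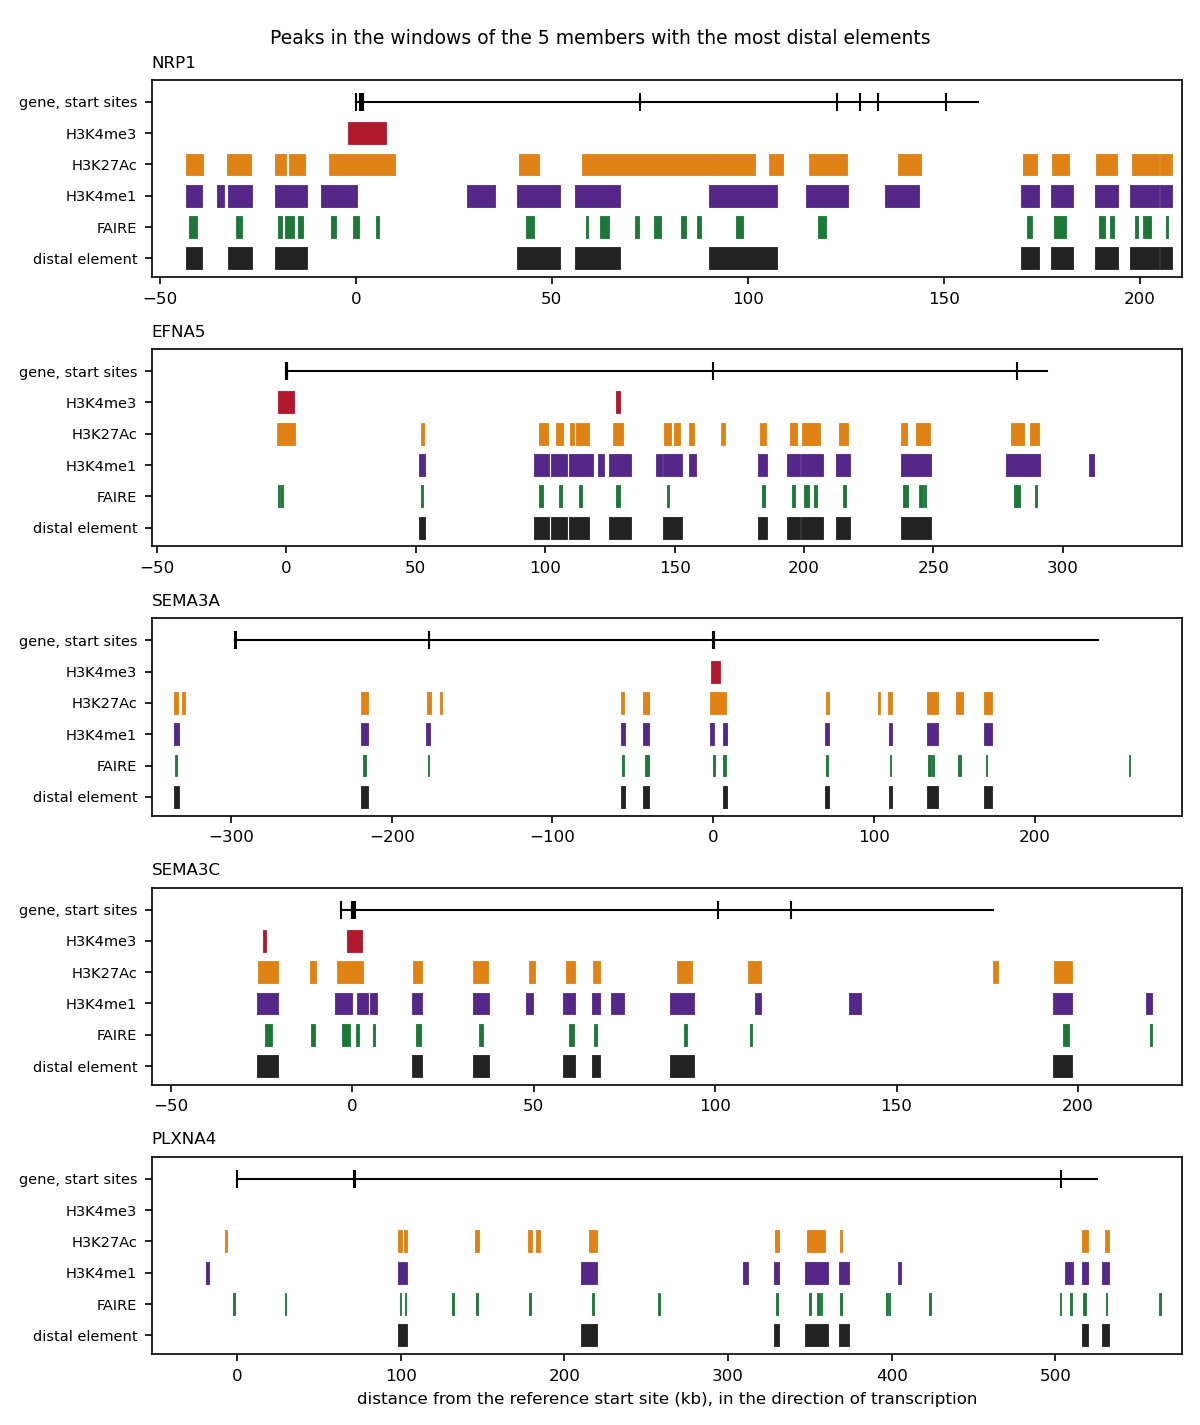
Peaks of the 4 lists and distal elements in the windows of NRP1, EFNA5, SEMA3A, SEMA3C and PLXNA4, in kb from the most upstream start site inside an H3K4me3 peak (for PLXNA4, the most upstream start site), in the direction of transcription. Ticks on the gene line are annotated start sites. NRP1 has elements on both sides of the gene, those of EFNA5 are within it, and PLXNA4 has 7 elements and no H3K4me3 peak.

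The open centres of 3 elements are shown as the central 300 bases of the tallest FAIRE peak within a distal element, on the plus strand of GRCh37, for EFNA5, SEMA3A and SEMA3C. Capitals mark the letters of 4 motifs searched on both strands: TGANTCA, the AP-1 site; GGAATG, bound by TEAD factors; CAGGTG, an E-box of ZEB and SNAI factors; and GGGCGG, bound by SP and KLF factors. EFNA5 is shown at chr5:106908228-106908527, intronic, in a FAIRE peak of height 135, and SEMA3A at chr7:84041263-84041562, intronic, height 148. SEMA3C is shown at chr7:80352107-80352406, outside the gene, height 168. SEMA3A had 1 TGANTCA and SEMA3C had 2 GGAATG in these bases, and EFNA5 had none of the 4.
EFNA5 element: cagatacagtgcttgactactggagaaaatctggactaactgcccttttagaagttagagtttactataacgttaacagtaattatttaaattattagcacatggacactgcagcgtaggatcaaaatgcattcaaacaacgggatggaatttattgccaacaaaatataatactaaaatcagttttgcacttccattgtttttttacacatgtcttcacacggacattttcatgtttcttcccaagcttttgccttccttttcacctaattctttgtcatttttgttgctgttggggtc
SEMA3A element: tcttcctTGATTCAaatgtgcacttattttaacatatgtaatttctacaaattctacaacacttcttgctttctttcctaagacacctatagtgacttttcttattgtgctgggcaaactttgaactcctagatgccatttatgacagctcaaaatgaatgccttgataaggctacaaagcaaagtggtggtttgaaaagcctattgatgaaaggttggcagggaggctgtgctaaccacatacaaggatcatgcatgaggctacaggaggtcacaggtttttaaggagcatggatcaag
SEMA3C element: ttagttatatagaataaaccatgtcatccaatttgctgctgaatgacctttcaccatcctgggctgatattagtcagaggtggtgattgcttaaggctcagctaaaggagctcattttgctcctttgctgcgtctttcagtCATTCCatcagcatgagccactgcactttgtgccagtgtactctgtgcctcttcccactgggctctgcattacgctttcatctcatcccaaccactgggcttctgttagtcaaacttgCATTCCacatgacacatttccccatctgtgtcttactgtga

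In the central 300 bases of FAIRE peaks in member windows, the shares with these motifs had intervals that held those of the whole list. TGANTCA was present in the central 300 bases of 120 of 306 peaks (39.2%, 33.9 to 44.8%), against 39.1% of 46531 FAIRE peaks. GGAATG was present in 21.2% (17.0 to 26.2%) against 21.4%, CAGGTG in 19.3% (15.3 to 24.1%) against 16.8%, and GGGCGG in 14.4% (10.9 to 18.8%) against 11.6%. Over whole peaks GGGCGG was present in 28.1% (23.4 to 33.4%) against 23.2%, a share outside the interval. The TGANTCA and GGGCGG shares differed between peaks at promoters and away from them. In member windows TGANTCA was present in 45.2% of 228 FAIRE peaks away from promoters and 21.8% of 78 peaks at promoters, and in the whole list in 43.7% and 20.0%. GGGCGG had the opposite order, 6.14% and 38.5% in member windows and 5.24% and 38.3% in the whole list. GGAATG was present in 24.6% (19.4 to 30.5%) and 11.5% (6.19 to 20.5%) in member windows, with intervals that overlap. In the whole list it was present in 22.7% and 16.0%. CAGGTG was present in 20.2% and 16.7% in member windows and in 16.7% and 17.1% in the whole list. A match is a description of letters and does not show that a factor was bound.

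The other genes of these pathways were counted in 2 lists. Of 49 signalling partners of Eph receptors, plexins and neuropilins, among them the collapsin response mediator DPYSL2, the GTPases RAC1 and RHOA and the kinase FYN, 44 had promoter H3K4me3 (89.8%) and 40 promoter H3K27Ac, and 31 had a distal element (63.3%). Over all genes these shares were 67.3%, 63.5% and 36.3%, and the lists' differences from them were not tested. DPYSL4, DPYSL5, CRMP1, FES and VAV3 had no promoter H3K4me3. The partners with H3K4me3 but no H3K27Ac were RND1, RND2, NRCAM and KDR, 4 of 49, against 6.05% of all genes. The netrin and Slit systems, the other classical guidance cues and receptors, had promoter H3K4me3 at 13 of 22 genes (59.1%), promoter H3K27Ac at 9 and a distal element at 9 (40.9%). H3K4me3 without H3K27Ac was found at 5 of these 22 genes, NTN1, UNC5B, UNC5C, ROBO2 and RGMA, and at 5 of the 9 luminal and epithelial markers, ESR1, PGR, FOXA1, ESRP1 and OVOL2, against 6.05% of all genes.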

How the data were processed

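Per the study's methods, reads were aligned with BWA to GRCh37 (hg19), duplicates and low-quality alignments were removed, and the samples of an assay were combined. The authors called ChIP-seq peaks with MACS against input and deposited the score as 10 times −log10 of p. They called FAIRE peaks with FindPeaks and deposited the peak height, a signal value in that program's units. The submitters' processing notes also name TopHat and HOMER. The lists were tied to assays by file name.

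Identical FAIRE rows were kept once (5 repeats). Peaks were compared with GENCODE start sites by Python 3.11.15 and numpy 2.4.6, checked against bedtools 2.31.1. Intervals came from scipy 1.17.1 and figures from matplotlib 3.10.9. Motifs were read from GRCh37 and CpG ratios from RefSeq promoters. The members and lists were chosen with earlier results of these data known. Full values were given for the tallest promoter FAIRE peaks of each group among members with promoter H3K4me3, H3K27Ac and FAIRE, the widest H3K4me3 peaks, the most distal elements and the farthest start sites, and for members without promoter peaks; EPHB3 was added after its values were seen. Alternatives changed the promoter window, start sites, overlap, peak strength and flank.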

Additional observations from a re-analysis of the deposited data

How the results depend on the processing

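The 12 results were recounted under their alternative settings, 75 recounts in all. Of these, 63 left a count within 1.5 times, or a share within its interval. The change in CpG ratio had no set limit and was counted as outside. After seeing the data 8 recounts were added, those of H3K4me3 without H3K27Ac and of all 3 peaks at 1 start site. With the most upstream start site alone, members with a promoter FAIRE peak numbered 13, those with H3K4me3, H3K27Ac and FAIRE 6, those with no promoter peak 9, and those with H3K4me1 without H3K4me3 2. With the peak centre required inside the promoter window, 4 members had H3K4me1, 8 had no promoter peak and 1 had H3K4me1 without H3K4me3. With FAIRE peaks kept from the list's median upward, 11 members had a promoter FAIRE peak and 8 had all 3 peaks. The difference between the median CpG ratios of members with and without H3K4me3 went from -0.03 to 0.22 with 500 bases on each side of the most upstream start site in place of the RefSeq windows, a change of start site and length together. In member windows TGANTCA was present in 59.5% of whole FAIRE peaks, against 59.2% in the full list, and in 45.2% of FAIRE peaks outside promoters, against 43.7%. The start site, centre and height settings leave fewer start sites or peaks to count, and whole peaks hold more bases. The cause of the changes was not tested for any setting. H3K4me3 without H3K27Ac was found at 10 to 13 members over the promoter settings, and at 6.01 to 8.81% of all genes. The highest share of all genes came with peak centres, while 13 members were also found with 2 start site settings. With peak centres EPHA2 and NRP1 had the state. H3K27Ac peaks of 23267 bp at EPHA2 and 33905 bp at NRP1 covered start sites there, but with centres outside the promoter window. Promoter H3K4me3, promoter H3K27Ac and both distal counts stayed within 1.5 times under every alternative run. No paired analysis was possible because the deposited lists merge the samples of an assay into 1, so values by sample and leaving out a sample were not possible either. The lists do not give the depth behind a peak.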
